A study of Mus musculus with 2 samples.

Results

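Mitochondrial ribosomal protein genes encode the nuclear-made proteins of the ribosome that works inside mitochondria. The genes described here are the protein-coding mouse genes whose symbol begins with Mrpl or Mrps followed by a digit, without pseudogenes, and which are listed in both deposited gene tables. The rule used names only, and no measured value. It gave 77 genes, 48 with an Mrpl and 29 with an Mrps symbol, of 43346 genes in the tables and of 21474 protein-coding genes. Another gene that fits the rule by name, Mrpl33, is listed under another identifier and was not analysed here.

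The measurements came from thymus of adult C57BL/6J mice aged 8 weeks, with males and females pooled. The single group held 2 RNA-seq libraries, biological replicates 1 and 2, both untreated as far as the labels say and with no alleles named. Both were stranded libraries of polyadenylated RNA depleted of ribosomal RNA and longer than 200 nucleotides, read as pairs of 76 bases. The replicates have separate biosample entries but share 1 donor entry, and the labels speak of littermates, so the spread between them may be technical in part. With 1 group the design has no contrast between conditions, and every value below is a description of these 2 libraries without a test.

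The mitochondrial ribosome translates the few mRNAs of the mitochondrial genome, all of which encode subunits of the respiratory chain and of ATP synthase. Its RNA is made inside the mitochondrion, whereas its proteins are encoded in the nucleus, made in the cytosol and imported. Many of these proteins have relatives in bacterial ribosomes, and others are found only in mitochondria. Mrpl symbols name proteins of the large subunit, where peptide bonds form, and Mrps symbols those of the small subunit, where the mRNA is decoded, with a few exceptions named below. The thymus consists mostly of developing T cells that divide and die in large numbers, within a scaffold of epithelial cells.

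Depth was 49.3 M and 63.1 M fragments in replicates 1 and 2. The counts of a mitochondrial ribosomal protein gene in a library ranged from 178 to 5538, with a median of 954 in replicate 1 and 1443 in replicate 2. Markers of thymocytes were high in both libraries, with summed levels of 3376 and 3304 TPM over 7 genes, and 6 markers of thymic epithelium summed to 968 and 1281 TPM. TPM is the tables' level per length of transcript, scaled to the same sum in each library. Markers of other tissues differed between the libraries. The 4 liver markers summed to 80.5 TPM in replicate 1 and 4.95 TPM in replicate 2, the 4 skeletal muscle markers to 12.2 and 175 TPM, and the 6 brown fat markers to 584 and 319 TPM. The lowest of these lists' genes in a library was Myh4, a muscle myosin, at 0.03 TPM in replicate 1, and no marker of these 3 lists was at 0. The part of these tissues in the levels below was not tested. In whole tissue, fewer cells of a type and less RNA per cell cannot be told apart.

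All 77 genes were detected at a mean of at least 1 TPM, a level that 60.3% of protein-coding genes reached. The median of the genes' mean levels was 42.0 TPM, beside 3.30 TPM for all protein-coding genes. The medians within the 2 libraries were 41.0 and 40.1 TPM, with an SD of 0.63 TPM between them. At 10 TPM or more there were 69 of the 77, against 36.2% of protein-coding genes. At 100 TPM or more there were 9, against 7.37%. The middle 50% of the genes lay between 17.3 and 68.4 TPM. Most of the set thus stood above the middle of the transcriptome, with 74 of 77 above the median protein-coding gene and a median percentile of 83.5. Together the genes summed to 3954 TPM in replicate 1 and 3817 TPM in replicate 2, or 0.395% and 0.382% of all TPM.

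The highest level was that of Mrps16, a small-subunit protein with a bacterial relative, at chr14:20389304-20393634 (GRCm38). It stood at 183 TPM in replicate 1 and 193 TPM in replicate 2 (mean 188 ± 6.66 TPM, SD, n = 2). Mrps24, another conserved small-subunit protein, followed with 184 and 171 TPM, and Mrpl52, a large-subunit protein found only in mitochondria, with 167 and 153 TPM. Mrps16 and Mrps24 changed order between the libraries and Mrpl52 stayed below them in both. Mrpl14, a conserved protein of the face that meets the small subunit, had 137.0 and 136.7 TPM. Mrpl34, a small conserved protein of the large subunit, had 133.2 and 133.7 TPM. Mrpl58, which resembles a release factor and can free stalled peptides, had 120 and 130 TPM. These levels came in close steps, and neighbours such as Mrpl14 and Mrpl34 stood within a few TPM of each other in both libraries. Mrps34, a small-subunit protein found only in mitochondria, had 128 and 116 TPM. Mrpl17, at the exit of the peptide tunnel, had 115 and 121 TPM. Mrpl36, one of the smallest proteins of the large subunit, had 106.1 and 105.9 TPM, and Mrpl43 had 100.4 and 88.5 TPM. Of the 10 highest genes, 7 carried Mrpl symbols and 3 carried Mrps symbols.

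The lowest level was that of Mrpl47, a conserved protein beside the exit tunnel, at chr3:32725397-32737605, with 1.70 and 2.40 TPM (mean 2.05 ± 0.495 TPM, SD, n = 2). Mrpl1, the protein of the mobile stalk near the exit site for tRNA, had 2.26 and 2.16 TPM. Mrpl50, found only in mitochondria, had 3.08 and 3.33 TPM. The order of Mrpl47 and Mrpl1 changed between the libraries, so their levels did not differ beyond the spread. Mrps31, of the head of the small subunit, had 4.45 and 3.41 TPM. Mrpl19, a conserved protein of the subunit interface, had 4.94 and 4.39 TPM. Mrpl11, of the stalk base, had 5.42 and 5.45 TPM. The next 4 genes, all of the large subunit, were Mrpl16 with 6.32 and 7.20 TPM, Mrpl35 with 7.69 and 8.10 TPM, Mrpl45 with 11.10 and 11.11 TPM, and Mrpl39 with 12.58 and 9.65 TPM. The highest and the lowest gene of the set differed 91.8-fold in mean TPM. The order depends on length. In counts scaled to the library total (CPM, not divided by length) the extremes were Mrps24 at a mean of 88.2 and Mrps31 at 3.83, and Mrps16 ranked 13 and Mrpl52 37 of 77. Counts behind the low levels were not small, with 178 and 284 fragments for Mrpl47 and 218 and 302 for Mrpl1.

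**Figure D1:**
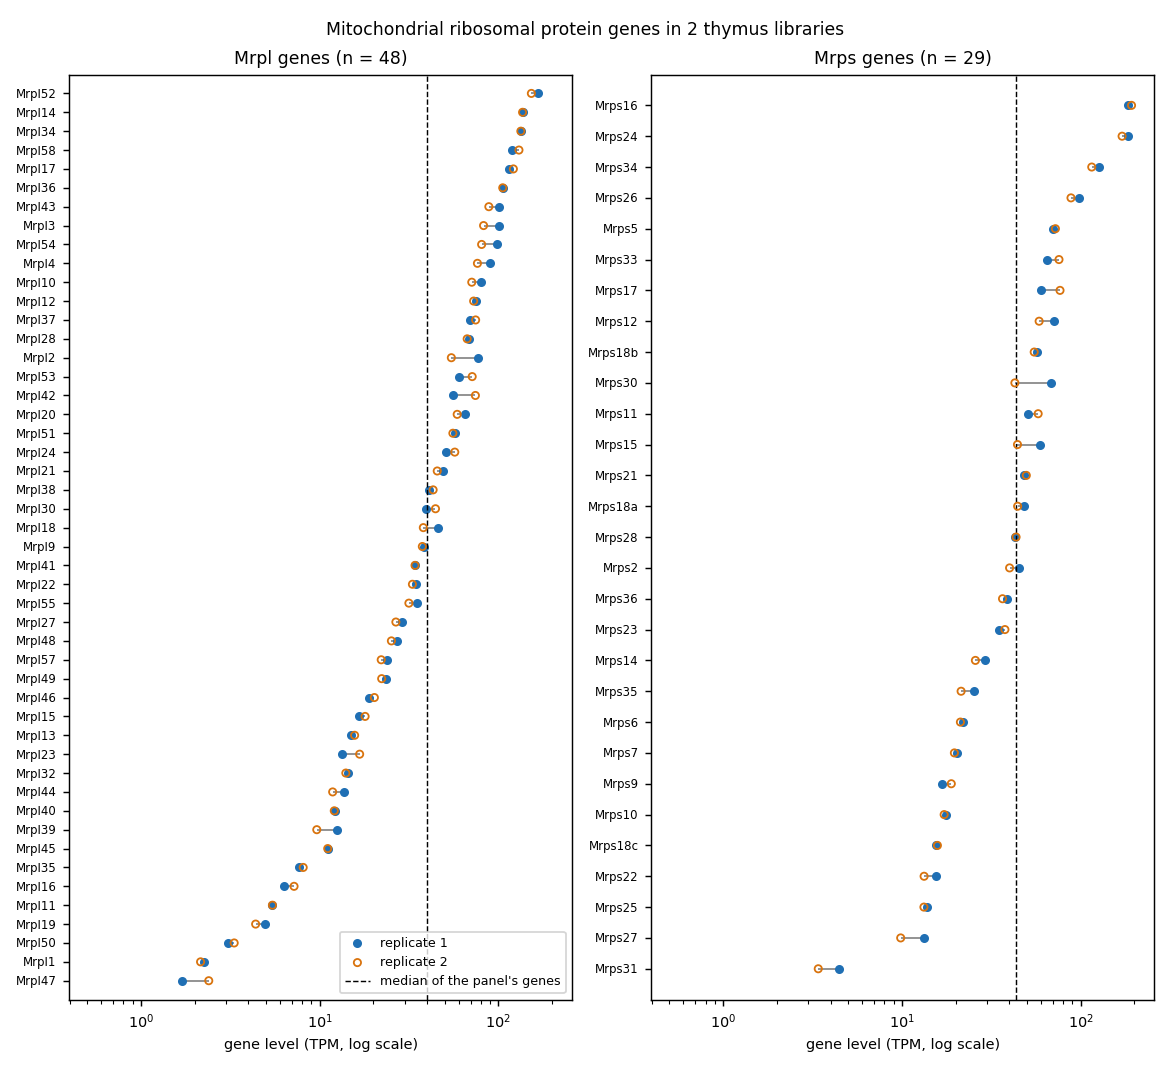
Level of each of the 77 genes in replicate 1 (filled) and replicate 2 (open), in TPM on a log axis, with Mrpl genes on the left and Mrps genes on the right. Dashed lines mark the panel medians, 40.0 TPM and 43.3 TPM. The points of a gene lie close together compared with the range from Mrpl47 to Mrps16.

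By subunit the medians were similar. The 48 Mrpl genes had a median of 40.0 TPM (39.0 and 37.8 in the 2 libraries) and the 29 Mrps genes one of 43.3 TPM (45.2 and 42.9). The ratio of the medians was 0.924 from the mean levels, 0.864 in replicate 1 and 0.881 in replicate 2. The proteins Mrps18a and Mrps30 sit in the large subunit despite their symbols. Mrps36 is now known as a part of the 2-oxoglutarate dehydrogenase complex. With the first 2 moved and Mrps36 left out, the ratio was 0.978, and with CPM in place of TPM it was 1.04, so the data give no firm order of the subunits.

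Genes listed as conserved and those listed as mitochondrial were set apart as well. The 28 conserved large-subunit genes had a median of 42.0 TPM and the 21 mitochondrial large-subunit genes one of 42.1 TPM. In the small subunit, the 16 conserved genes had a median of 46.1 TPM and the 10 mitochondrial ones 29.9 TPM. Mrps18a and Mrps18b, relatives of Mrps18c, and Mrpl58, which resembles a release factor, are in the mitochondrial lists. These lists are therefore not strictly of proteins found only in mitochondria. No gene of the small-subunit conserved list had a mean below 15.7 TPM, while the conserved large-subunit list reached down to Mrpl47 and Mrpl1. Mrpl55 and Mrps36 were placed in none of these 4 lists. Mrpl55 had 35.2 and 31.6 TPM, and Mrps36 had 38.8 and 36.6 TPM.

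Within structural neighbourhoods the levels were uneven. In the stalk that recruits the translation factors, Mrpl10 had 80.2 and 71.0 TPM and Mrpl12 had 75.02 and 72.77 TPM. Mrpl12 is present in several copies on each ribosome and also binds the mitochondrial RNA polymerase. Mrpl11, their partner at the base, stood 13.9-fold below Mrpl10, the highest of the 3. Around the exit of the peptide tunnel, Mrpl17 was followed by Mrpl24 with 50.7 and 57.1 TPM and Mrpl22 with 34.6 and 33.1 TPM. Mrpl23 had 13.3 and 16.8 TPM, and Mrpl45, which anchors the ribosome to the inner membrane, had 11.10 and 11.11 TPM. With Mrpl47 the range over these 6 genes was 57.7-fold in TPM. In CPM it was narrower, from 39.9 for Mrpl17 to 4.06 for Mrpl47, and Mrpl45 stood above Mrpl22 at 11.8.

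In the central protuberance, where the mitochondrial ribosome of mammals uses a tRNA in place of the 5S RNA, levels per length were closer together. Mrpl38 had 41.0 and 43.2 TPM and Mrpl18 had 45.8 and 38.1 TPM, so their order changed between the libraries. Mrpl27 had 28.9 and 26.7 TPM and Mrpl48 had 27.3 and 25.2 TPM. Mrpl46 had 18.8 and 20.3 TPM, and Mrpl40 had 12.18 and 12.09 TPM, each in the same place in both libraries. The 6 genes spanned 3.47-fold in TPM, and in CPM they ran from 31.8 for Mrpl38 to 8.21 for Mrpl40.

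The 3 Mrps18 genes encode related proteins of which each takes its own place in the ribosome. Mrps18b, of the small subunit, had 56.7 and 55.0 TPM. Mrps18a, which sits in the large subunit, had 48.3 and 44.5 TPM. Mrps18c, which takes the place of the bacterial protein in the small subunit, had 15.6 and 15.8 TPM. The order b, a, c was the same in both libraries, and the gaps exceeded the difference between the libraries for each of the 3.

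Shorter genes had higher levels per length. Across the 77 genes the rank correlation of mean TPM with effective length was -0.54, against -0.11 across the 14360 genes of at least 1 TPM. Effective length enters TPM itself and all points share the same 2 libraries, so this is only a description. The 39 shorter genes had a median of 56.4 TPM and the 38 longer ones 18.7 TPM. In CPM the medians were 23.2 and 17.5 and the correlation with length was 0.01. The median effective length of the set was 788 bases, against 2077 bases for protein-coding genes of at least 1 TPM.

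**Figure D2:**
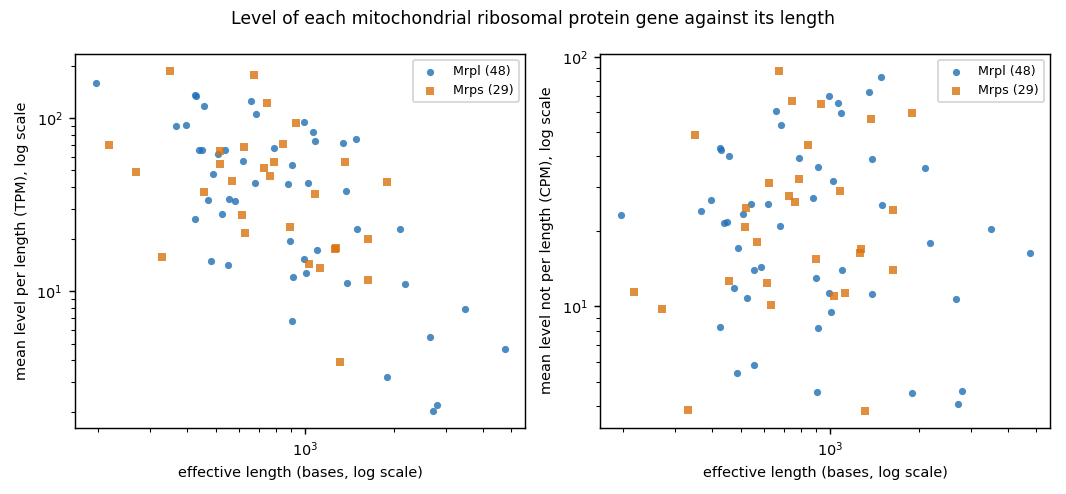
Mean level of each gene against its effective length in bases, both on log axes, as TPM (left) and as CPM (right), for Mrpl genes (circles) and Mrps genes (squares). The points fall with length on the left, with a rank correlation of -0.54, and show no slope on the right, with 0.01.

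The gene level sums several annotated transcripts, and for some genes most of it belonged to transcripts that are not classed as protein-coding. Of the 77 genes, 19 have 1 transcript in the tables and 58 have 2 or more. Over the 58, the leading transcript held a median of 77.6% of the gene's TPM, beside 66.7% for all protein-coding genes treated alike, 88.2% for cytosolic ribosomal proteins and 88.6% for nuclear respiratory chain subunits. In 12 of the 58, or 20.7%, the leading transcript was not classed protein-coding, against 15.6% of 9441 protein-coding genes. Of the 12, 9 were retained-intron transcripts, 2 were of the class degraded by nonsense-mediated decay and 1 was a processed transcript. Protein-coding transcripts held under 50% of the TPM in 13 of the 58, or 22.4%, against 18.2%, so the share of the set was near that of all protein-coding genes. Both shares were lower in the related lists. The leading transcript was not classed protein-coding in 11.9% of cytosolic ribosomal proteins and 8.93% of nuclear respiratory chain subunits. Coding transcripts held under 50% in 13.6% and 7.14% of them.

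Mrps26, a small-subunit protein found only in mitochondria, was the clearest case. Its gene level was 98.2 and 88.4 TPM, of which the protein-coding transcript held 2.93 and 2.55 TPM. The retained-intron transcript Mrps26-201 held 97.0% and 97.1% of the TPM and 87.1% and 87.5% of the fragments. Mrpl3, a conserved core protein of the large subunit, had 101 and 82.7 TPM, of which protein-coding transcripts held 3.48 and 2.68 TPM. There the leading model Mrpl3-206, of the decay class, has 3 exons and 457 bases, whereas the longest coding model has 10 exons and 3972 bases. Mrpl3-206 held 88.5% and 86.3% of the TPM, but 55.1% and 51.2% of the fragments. Both genes are high in the list of 77 by gene level and low by coding transcripts.

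Other members with a leading model outside the coding class were spread over both subunits. Mrps33 had 4.23 and 5.26 TPM in coding transcripts of a mean gene level of 70.5 TPM, Mrps5 had 6.64 and 5.83 of 71.2 TPM, and Mrpl51 had 5.20 and 5.70 of 56.4 TPM. Mrpl21 had 6.83 and 7.97 of 47.3 TPM, and Mrps11 had 9.49 and 7.48 of 54.3 TPM. The lower genes of this kind were Mrps14 with 3.33 and 2.90 of 27.5 TPM, Mrps25 with 1.76 and 1.91 of 13.6 TPM, Mrpl15 with 5.32 and 5.31 of 17.3 TPM, and Mrpl23 with 3.83 and 6.02 of 15.04 TPM. The coding values of Mrpl23 are uncertain, since a pseudogene copy shares the sequence of its coding transcript, as given below. In Mrpl58 the coding transcripts held 35.8 and 35.0 TPM of 125 TPM. In Mrps34 the leading model was coding, but coding transcripts held 49.7% of the TPM. Mrpl32, with 14.51 and 14.03 TPM, has a single transcript in the tables, and it is of the decay class. Classes are those of GENCODE M21, while the quantified transcripts were those of M4. No coding transcript of Mrpl32 was quantified, so its coding level of 0 is not a measured absence. By fragments the picture differs for 3 of these genes, since coding transcripts held a mean of 70.0% of the fragments in Mrps25, 52.7% in Mrpl15 and 57.8% in Mrpl58. In the other genes of this paragraph the coding share of fragments was under 50%, from 0 in Mrpl32 to 46.9% in Mrps34.

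Counting protein-coding transcripts alone, the median of the 77 genes was 28.0 TPM and 55 genes reached 10 TPM. Mrpl32 entered these values without a quantified coding transcript. The rank correlation with the gene level was 0.74 over the 77 genes, whose values share both libraries and most of their transcripts. Fragments that fit several models were shared out by the deposited quantification, and short models gain TPM per fragment. In Mrpl2, for instance, the processed transcript Mrpl2-204 has an effective length of 4.96 bases in replicate 1 and there received 5.75 TPM from 1 fragment.

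**Figure D3:**
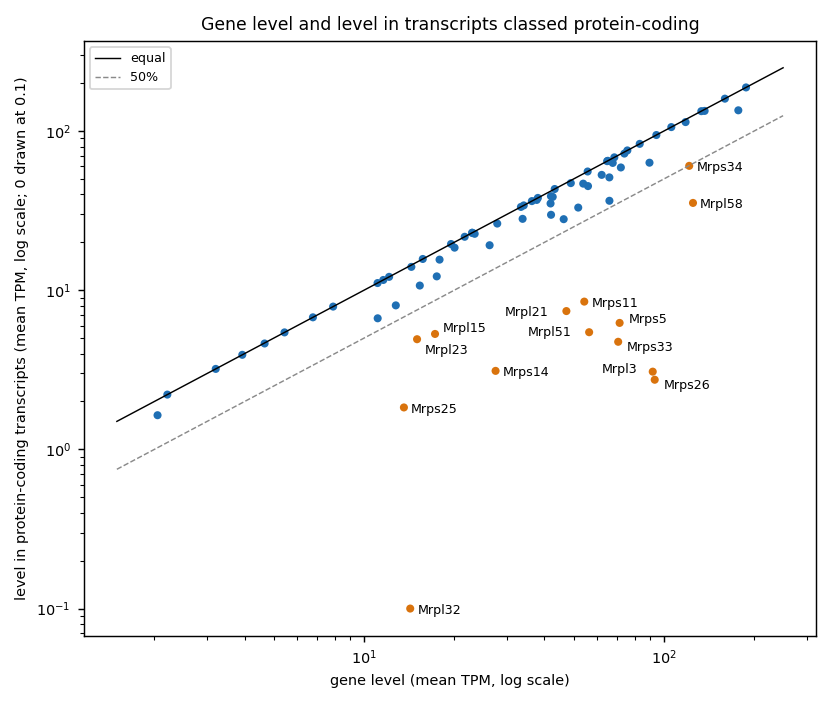
Mean level of each gene (x axis) against the mean level in its protein-coding transcripts (y axis), both in TPM on log axes, with lines of equality and of 50%. The named orange points are the 13 genes of several transcripts under 50% and Mrpl32 at 0, where no coding transcript was quantified. Mrps26 and Mrpl3 lie farthest below the line among genes above 0.

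Introns kept whole in retained-intron transcripts are shown for the 3 genes with the highest shares of such a transcript among introns under 100 bases. In all, 16 transcripts of 12 members contained a whole intron of a coding transcript. Of the leading retained-intron transcripts named above, only Mrps26-201 and that of Mrpl58, Mrpl58-208, were among them. The intron is in capitals and 10 bases of each neighbouring exon in lower case, 5' to 3', from GENCODE M21 transcripts on GRCm38. They begin with GT and end with AG, the usual borders of an intron.
Mrps26 intron of 80 bases, chr2:130564228-130564307, plus strand: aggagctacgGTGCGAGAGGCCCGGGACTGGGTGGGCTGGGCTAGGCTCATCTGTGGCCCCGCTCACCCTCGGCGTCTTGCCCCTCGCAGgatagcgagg
Mrpl58 intron of 89 bases, chr11:115410143-115410231, plus strand: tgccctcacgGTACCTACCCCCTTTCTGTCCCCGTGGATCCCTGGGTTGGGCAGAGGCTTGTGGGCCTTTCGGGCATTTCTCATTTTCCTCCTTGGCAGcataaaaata
Mrpl53 intron of 95 bases, chr6:83109427-83109521, plus strand: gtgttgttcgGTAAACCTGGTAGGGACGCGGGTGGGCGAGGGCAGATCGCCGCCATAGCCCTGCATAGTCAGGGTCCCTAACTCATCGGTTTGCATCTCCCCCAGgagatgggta
The models that hold them took 97.1% of the TPM in Mrps26, 29.6% in Mrpl58 and 22.3% in Mrpl53 (means of 2 libraries). These shares belong to whole transcript models. Mrps26-201 and the coding model also differ in their last exon, which has 457 and 3758 bases, and the models of Mrpl58 differ likewise with 192 and 2037 bases. The tables hold no count of reads across a single intron, so retention itself was not measured.

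Leading transcripts were mostly the same in both libraries, in 54 of the 58 genes, or 93.1%. The share was 88.5% for all protein-coding genes treated alike, 98.3% for cytosolic ribosomal proteins and 96.4% for nuclear respiratory chain subunits, so the set was near the background. The leading transcripts differed in Mrpl55, Mrpl58, Mrps10 and Mrps17. In Mrps17, a conserved small-subunit protein, the coding transcript Mrps17-203 led in replicate 1 with 35.2% and held 19.6% in replicate 2, where Mrps17-210 led with 41.3% after 25.5%. In Mrps10 the coding transcripts Mrps10-203 and Mrps10-204 held 35.5% and 29.3% in replicate 1 and 31.8% and 36.7% in replicate 2. The lowest leading shares were those of Mrpl58 with 29.6%, Mrps17 with 33.4%, Mrps10 with 33.7%, Mrpl24 with 33.8% and Mrpl55 with 38.0%. The highest were those of Mrps6 and Mrpl46 with 100%, Mrpl10 with 99.8%, Mrpl19 with 99.3% and Mrpl45 with 98.6%.

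Processed pseudogenes, copies of spliced mRNAs in the genome, share sequence with some of these genes. At 95% identity over at least 200 bases, 21 such copies of 17 members were found, and 60 members had none. Of the 21, 14 were in the gene tables, 7 of them at 0 in both libraries, and 2 at a mean of at least 1 TPM. Gm5776, a copy of Mrps33, had 1.74 and 1.92 TPM. The other was Mrpl23-ps1, a copy of Mrpl23 with 1 exon at chr2:74591330-74591909. It was listed at 120 and 126 TPM, above Mrpl23 itself at chr7:142532686-142540747 with 13.3 and 16.8 TPM. The copy and the coding transcript Mrpl23-201 were 100% identical over 540 bases. All 4 exon junctions of Mrpl23-201 lie within the shared sequence. The stretches around 2 of them are shown because a fragment from them fits both genes. The coordinates are the last base of an exon and the first of the next. The end of the exon is in lower case and the start of the following one in capitals, 30 bases each, 5' to 3', from GENCODE M21.
Mrpl23 junction chr7:142535127-142536070, plus strand: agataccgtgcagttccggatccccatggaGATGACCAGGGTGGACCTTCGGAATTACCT
Mrpl23 junction chr7:142536152-142537267, plus strand: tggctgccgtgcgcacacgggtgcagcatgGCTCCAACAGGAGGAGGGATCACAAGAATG
The deposited counts were 226 and 393 fragments for Mrpl23 and 1530 and 2223 for the copy. The split between them cannot be checked from the tables, so the level of Mrpl23 and its place among the low genes of the tunnel exit are uncertain. The same holds for its coding share, its leading transcript and its ratio between the libraries. Its place in the counts of genes by transcript class is therefore uncertain too.

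Overlapping neighbours are a further limit on single genes. There were 12 members that overlap another annotated gene on the same strand, 4 of them a protein-coding gene. These 4 were Mrps24 with Urgcp at 18.8 and 17.5 TPM, Mrps34 with Nme3 at 53.0 and 60.5 TPM, Mrpl53 with Gm42688 at 21.5 and 20.9 TPM, and Mrps6 with Slc5a3 at 2.93 and 2.45 TPM. On the opposite strand 35 members overlap a gene, and 36 members overlap no gene at all.

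The 2 libraries gave much the same levels for the whole set. Of the 77 genes, 0 differed 2-fold between the libraries, against 4.23% of the 14360 genes of at least 1 TPM (2.74% higher and 1.49% lower in replicate 2). Among the 12949 protein-coding genes of that level, 265 were 2-fold higher and 135 were 2-fold lower. At 1.5-fold there was 1 gene, Mrps30, which was lower, against 12% of genes (6.35% higher and 5.65% lower). By counts per total there were 0, against 11.2%. The median log2 ratio of replicate 2 over replicate 1 was -0.04 for the set and -0.04 for all genes, on log2(TPM + 0.1). The middle 50% of ratios ran from -0.15 to 0.07 in the set and from -0.24 to 0.16 in all genes. The genes set beside the 77 reach down to 1 TPM and were not matched to them for level. No steadiness particular to the set is therefore drawn from these shares. The rank correlation between the libraries was 0.98 over the 77 genes, which share each library's depth and preparation.

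Mrps30, at chr13:118378381-118387252, had the largest difference. It stood at 68.6 TPM in replicate 1 and 42.9 TPM in replicate 2, and its counts were 3304 and 2866 in the shallower and the deeper library. The log2 ratio was -0.67 in TPM and -0.56 in counts per total, with an exact 95% interval of -0.63 to -0.49 that covers counting error only. Mrps30 has 1 transcript in the tables, and the cause of its difference was not tested. Mrpl2, a conserved protein near the peptidyl transferase centre, had 77.2 and 54.6 TPM, a log2 ratio of -0.50. Its counts per total had a log2 ratio of only -0.12, and the short transcript Mrpl2-205 went from 44.4% to 25.8% of the TPM. Mrpl39 likewise had -0.38 in TPM and 0.10 in counts per total. The part of transcript shares in these ratios was not tested. Mrps27 had 13.4 and 9.86 TPM and a ratio of -0.43, and Mrps15 had 59.3 and 44.4 TPM and a ratio of -0.42.

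In the other direction the largest ratio was that of Mrpl47, at 0.47, from the lowest level of the set. Mrpl42, which had 55.7 and 74.4 TPM, followed with 0.42, and its counts per total gave 0.53 (exact 95% interval 0.41 to 0.65, counting error only). Mrps17 had 60.1 and 76.8 TPM with 0.35, Mrpl23 had 0.33, and Mrpl53 had 60.3 and 71.4 TPM with 0.24. By TPM, 30 of the 77 genes were higher and 47 lower in replicate 2, beside 6327 higher of the 14360 genes of at least 1 TPM. Of the 77, 43 lay within 10% of equality. The counting interval of the ratio excluded 0 for 38 genes, 28 of them higher in replicate 2, while the median counts-per-total ratio was 0.08 in the set and 0.07 in all genes. Neither such intervals nor the share within 10% were counted over all genes, so nothing about the set is drawn from them.

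**Figure D4:**
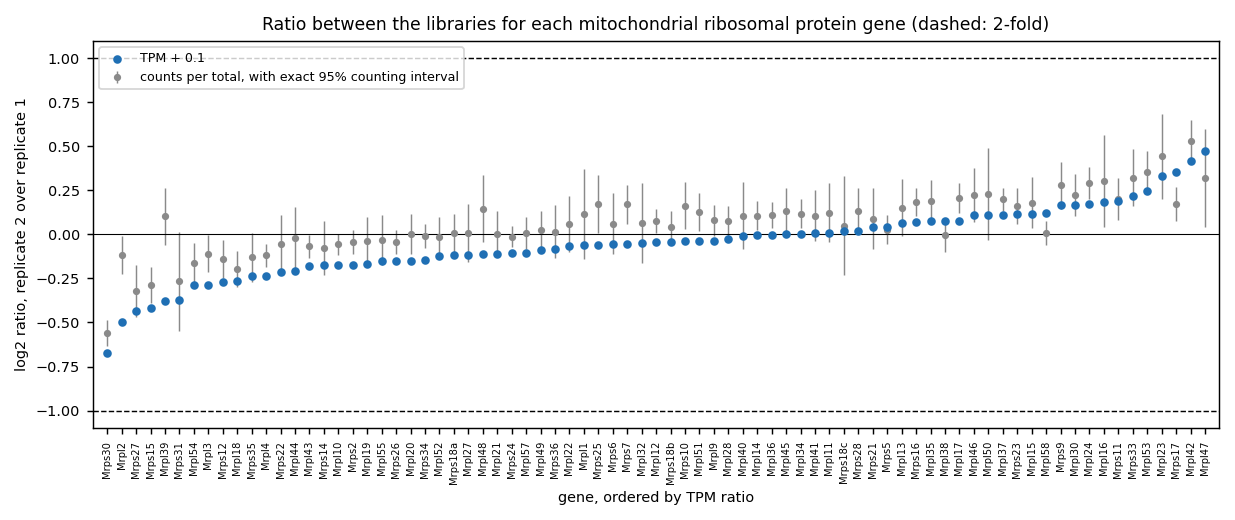
Log2 ratio of replicate 2 over replicate 1 for each gene, ordered by the TPM ratio (blue), with the ratio of counts per total (grey) and its exact 95% counting interval. Dashed lines mark 2-fold; all points lie inside them, from Mrps30 at -0.67 to Mrpl47 at 0.47 in TPM.

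Promoters were compared because many nuclear genes for mitochondria are known targets of the factors NRF1, GABP, which binds ETS sites, and YY1. RefSeq windows on GRCm38.p6, from 250 bases before to 50 bases after the start, were found for 68 of the 77 genes, and each motif was searched on both strands. The NRF1 core GCATGCGC was in the windows of 7 genes, or 10.3%, against 3.05% of all 27025 genes with a window and 5.71% of protein-coding genes of at least 1 TPM. The ETS core CCGGAAG was in 36.8%, against 9.93% and 19.3%. The YY1 motif AAGATGGCG was in 11.8%, against 1.64% and 3.45%, and in 6 of its 8 genes it began 12 to 37 bases after the start. The CCAAT box, CCAAT, was in 38.2% against 41.1% and 42.3%, and the TATA box, TATAAA, in 7.35% against 15.7% and 9.17%. The NRF1 and ETS cores occurred together in 3 genes, and 17 genes had none of the 5 motifs. No motif contains another, but the last 3 letters of the ETS core are the first 3 of the YY1 motif, so their matches can overlap. A match is a run of letters, not a bound site.

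The sequences before the start are shown for the 3 highest genes with an NRF1 core, to show where the letters lie. Capitals mark matches of the NRF1 core and the ETS core on either strand, and each run of 250 bases ends at the base before the start, read 5' to 3' in the direction of the gene.
Mrpl17, chr7:105811088-105811337, minus strand: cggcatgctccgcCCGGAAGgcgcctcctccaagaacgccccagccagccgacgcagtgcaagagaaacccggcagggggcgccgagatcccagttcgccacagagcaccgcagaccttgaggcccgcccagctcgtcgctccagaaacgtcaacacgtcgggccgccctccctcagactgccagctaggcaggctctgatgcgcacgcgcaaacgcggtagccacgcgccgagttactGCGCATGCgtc
Mrpl10, chr11:97041332-97041581, plus strand: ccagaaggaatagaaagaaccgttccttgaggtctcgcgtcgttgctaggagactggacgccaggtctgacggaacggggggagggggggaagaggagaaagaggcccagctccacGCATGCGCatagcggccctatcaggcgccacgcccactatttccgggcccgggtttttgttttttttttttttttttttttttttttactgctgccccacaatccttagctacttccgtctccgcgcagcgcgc
Mrps18b, chr17:35916441-35916690, minus strand: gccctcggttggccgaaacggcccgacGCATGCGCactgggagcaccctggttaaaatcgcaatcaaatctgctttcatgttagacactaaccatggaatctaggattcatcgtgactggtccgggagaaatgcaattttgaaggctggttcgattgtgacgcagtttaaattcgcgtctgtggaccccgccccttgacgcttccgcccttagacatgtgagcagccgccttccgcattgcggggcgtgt
In Mrpl17 the NRF1 core begins 11 bases before the start, in Mrpl10 134 bases and in Mrps18b 223 bases. A second NRF1 core of Mrps18b begins at base 29 after the start and is not shown. Genes with an NRF1 core had a median of 38.0 TPM, and those with a window but without one 42.0 TPM. The 25 genes with an ETS core had a median of 55.9 TPM and those without 33.4 TPM. Length was not taken into account in these medians, and a link between a motif and the level was not tested.

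A head-to-head neighbour, a protein-coding gene on the opposite strand that starts within 1000 bases and points away, was annotated for 18 of the 77 genes, or 23.4%. The share was 6.82% for all protein-coding genes and 9.77% for those of at least 1 TPM. The starts of these pairs lay 26 to 935 bases apart, with a median of 82. Of the 18 neighbours, 17 were at 1 TPM or more and 13 at 10 TPM or more, levels that 60.3% and 36.2% of protein-coding genes reached. Mrps12, the decoding-site protein, stands 172 bases from Sars2, the mitochondrial seryl-tRNA synthetase, with 70.8 and 58.7 TPM beside 50.5 and 45.2 TPM. Mrps18b lies 45 bases from Ppp1r10, with 56.7 and 55.0 TPM beside 54.9 and 49.6 TPM. Other pairs were far from equal. Mrpl49, at 23.7 and 22.3 TPM, lies 59 bases from Fau, which encodes a cytosolic ribosomal protein, at 508 and 606 TPM. Mrpl51, at 57.1 and 55.7 TPM, lies 100 bases from Ncapd2, a condensin subunit, at 502 and 339 TPM. Mrpl10, at 80.2 and 71.0 TPM, lies 153 bases from Lrrc46 at 0.38 and 0.46 TPM. Mrps11 and Mrpl46 overlap on opposite strands over 413 bases and were not counted as such a pair.

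The genes were spread over 17 chromosomes, with 11 on chromosome 11, 8 on chromosome 17 and 7 on chromosome 6.

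Other genes of mitochondrial gene expression were read from lists. The 5 mitoribosomal proteins with other symbols had a median of 46.2 TPM. They ran from Aurkaip1, also known as a small-subunit protein, at 199 and 182 TPM, through Dap3, a small-subunit protein that binds GTP, at 67.8 and 72.0 TPM, to Ptcd3 at 6.80 and 7.39 TPM. The factors that act with the ribosome had lower medians per length. These were 18.8 TPM for 25 assembly factors, 13.5 TPM for 16 translation factors, 20.8 TPM for 17 mitochondrial tRNA synthetases and 10.9 TPM for 10 genes of mitochondrial transcription and RNA processing. In CPM the order was different, with medians of 17.8, 17.2, 28.6 and 20.4 for these 4 lists beside 21.5 for the 77 genes. Some lists held single genes far above their median TPM. Mterf3, which acts in ribosome assembly, had 505 and 465 TPM, but from only 801 and 1113 fragments and an effective length of 45.3 bases in replicate 1. Lars2, the leucyl-tRNA synthetase, had 534 and 483 TPM from 68645 and 86055 fragments. Oxa1l, the membrane insertase at the tunnel exit, had 127 and 116 TPM, and Tufm, the elongation factor that brings tRNA, had 106 and 94.1 TPM. Polrmt, the mitochondrial RNA polymerase, had 91.1 and 81.7 TPM. At the low end, Gtpbp10 had 1.12 and 1.24 TPM and Mtrf1 had 1.14 and 1.19 TPM. In these 5 lists 0 of 73 genes differed 2-fold between the libraries.

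Known regulators of such genes were present at varied levels. Nrf1 had 105 and 91.0 TPM, Myc 139 and 86.5 TPM, and Esrra 65.8 and 68.1 TPM. Ppargc1a, a coactivator prominent in brown fat and muscle, had 0.72 and 0.96 TPM, and its relative Ppargc1b 5.02 and 3.85 TPM.

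The mRNAs that this ribosome translates, and the nuclear subunits that join their products, had higher medians. The 13 mRNAs of the mitochondrial genome had a median of 959 TPM and summed to 26951 and 36023 TPM. Among them mt-Co1 had 7147 and 10916 TPM, and mt-Nd3 was listed at 0 in replicate 1 and at 122 TPM in replicate 2. The cause of this difference in mt-Nd3 was not tested, and its 0 is not read as an absence. The 83 nuclear subunits of the respiratory chain and ATP synthase had a median of 143 TPM, and the 80 cytosolic ribosomal protein genes one of 479 TPM. In CPM the medians were 530 for the mitochondrial mRNAs, 59.9 for the nuclear subunits and 210 for the cytosolic list. The 77 genes had a median CPM of 21.5. In the nuclear respiratory chain list 2 of 81 genes with at least 1 TPM were 2-fold higher in replicate 2, against 2.74% of genes. They were Cox6a2, with 25.3 and 342 TPM, and Cox7a1, with 26.9 and 78.6 TPM, both forms used in heart and skeletal muscle. The skeletal muscle markers moved the same way, as given above, and their part in this was not tested. That count is near the share of all genes, and no difference from the 77 genes is drawn from it.

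**Figure D5:**
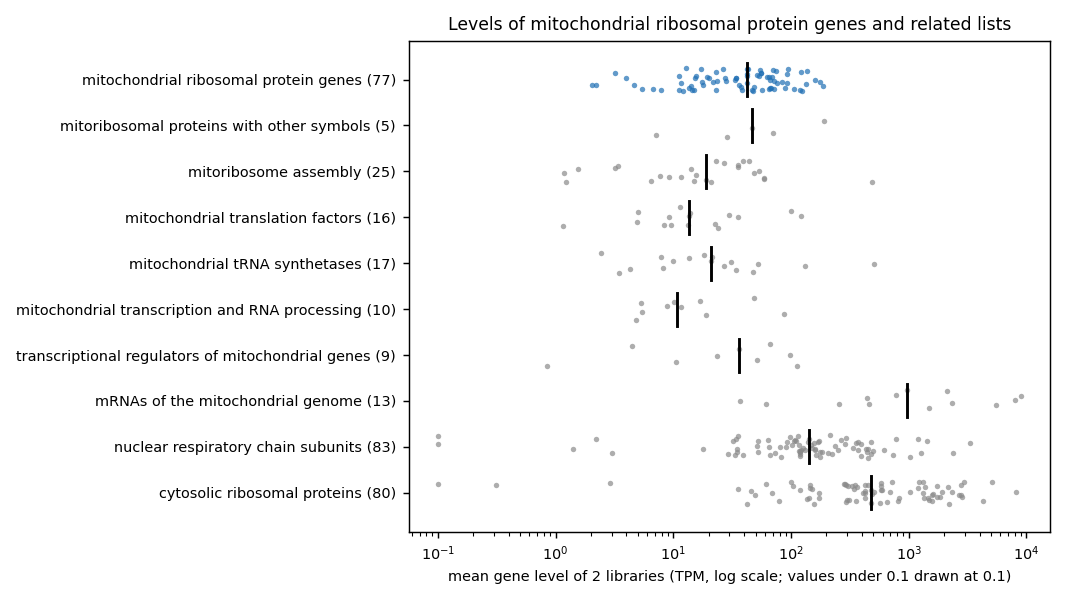
Mean level of each gene of 10 lists in TPM on a log axis, 1 point per gene, with the number of genes in brackets and a bar at the median. The 77 mitochondrial ribosomal protein genes lie around 42.0 TPM, below the nuclear respiratory chain subunits around 143 TPM and the cytosolic ribosomal proteins around 479 TPM.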

How the data were processed

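The 2 thymus RNA-seq libraries each came with tables by gene and by transcript. Per the file headers, the authors deposited expected counts (estimated fragments, not normalised), TPM, posterior mean TPM, 95% bounds of TPM and effective lengths. Per the text files deposited with them, the build was mm10 with GENCODE M4. Aligner and quantifier: not given in the sources used here. Features outside genes, spike-ins included, held 1.49% and 1.48% of the deposited counts. The median chi-square of gene counts between the libraries was 8.97, against 0.455 for sampling noise, so they were not treated as 1 library deposited a second time. This does not show that they came from separate animals.

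Symbols and classes came from GENCODE M21 (GRCm38), matched on the identifier without version, for 42462 of 43346 genes. A ratio is log2 of TPM + 0.1, replicate 2 over replicate 1, where the mean reaches 1 TPM, and a call is past 2-fold. Such ratios understate the change of low genes. Whole numbers, rounded from the deposited expected counts, entered the exact binomial 95% intervals, which cover counting error only. The ratio and its interval were checked on simulated counts with sampling noise only. That check does not cover the wider spread between these libraries. CPM are these counts scaled to the library's total over all features. Copies were searched with BLAST 2.17.0. In R 4.3.3, edgeR 4.0.16 and DESeq2 1.42.0 were used only to scale counts. The rest ran in Python 3.11.15 with scipy 1.17.1, pandas 2.3.3 and numpy 2.4.6, and plots used matplotlib 3.10.9. The promoter windows are from RefSeq.

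Named with full values were the 10 highest and 10 lowest genes, the 5 largest ratios each way, the structural lists and Mrps36. So were the isoform extremes and some of the highest and lowest genes of other lists. Other named genes were picked after their values were seen. Among them are head-to-head neighbours, further isoform cases, Cox6a2 and Cox7a1, and the printed introns and junctions. The set of genes and all lists were chosen with earlier results of these data known. Lists of contigs and junctions on mm9 were not used here.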

Additional observations from a re-analysis of the deposited data

How the results depend on the processing

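The number of genes at 10 TPM or more stayed between 65 and 70 with posterior mean TPM, CPM, TPM over nuclear protein-coding genes and either library alone, and was 55 with coding transcripts only. The median level was 21.5 in CPM, 55.2 TPM when rescaled over nuclear protein-coding genes, 28.0 TPM with coding transcripts only, and 40.1 to 41.0 TPM with 1 library left out. The ratio of the Mrpl to the Mrps median was 1.04 in CPM, 0.978 with Mrps18a and Mrps30 counted as large and Mrps36 left out, 1.28 with coding transcripts only, and 0.864 to 0.881 with 1 library left out. So its side of 1 depends on these settings. The count of genes past the fold was 1 at 1.5-fold and 0 under the other alternatives (another pseudocount, no filter, TMM or DESeq2 scaling, rescaled TPM and posterior mean TPM). The median leading share was 82.6% by fragments. Coding transcripts and fragment shares were alternatives chosen after seeing the data. Single genes moved 1.30 to 1.32-fold when rescaled. No paired analysis was possible because the study has only 1 group. Depth limits little here, since each gene had at least 178 fragments in a library, but 1 group of 2 libraries gives no test.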
